A study of Arabidopsis thaliana with 45 samples.

Results

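Clinorotated Arabidopsis roots (CR) were compared with roots of unrotated seedlings in 3 pooled control groups, Q1R, Q2R and Q3R. The comparison takes all root libraries of those 4 groups, 12 of the 45 libraries in the series. All seedlings were wild type Columbia-0 (Col-0), 7 days old, grown in 24 h light apart from 8 h of dark storage, and sealed in a Kennedy Fixation Tube (KFT), a closed vessel that floods its samples with the fixative RNAlater when actuated. Q1 seedlings were fixed after 4 h in the KFT, Q2 after 4 h and a further 14 min, and Q3 after 4 h and a further 18 min. CR seedlings also spent 4 h and 14 min in the KFT and were then turned for 4 min on a clinostat, so their total time matched that of Q3. These times follow the sample labels. The study's text places the fixations somewhat earlier after sealing and describes the start of the rotation in more than one way. Each group was 1 KFT with 3 libraries, and each library pooled 2 plants of that KFT. The rotation therefore cannot be told apart from the vessel it was applied in, and p-values measure the spread between libraries of the same KFT. Poly(A) RNA was sequenced, and the values are reads per gene, given below as CPM, the counts in 1000000 counts of the library after TMM normalization. The pooled comparison gave each control group its own mean and set the CR mean against the average of the 3. It asks which root transcripts differed after the rotation from controls that span the handling times around it. Fold changes are given with ± their standard error, and adjusted p-values are from edgeR's quasi-likelihood test with Benjamini-Hochberg adjustment over all genes tested.

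A root senses its direction in the columella cells of the root cap, where starch-filled amyloplasts settle with gravity, and auxin carriers of the PIN and AUX1 families then steer auxin to one flank. A clinostat turns the plant slowly, so that no direction stays down for long. Handling and rotation can also act as a mechanical stimulus, and touch-induced calmodulin-like genes such as CML12 and CML24 respond to it within minutes. A sealed vessel with wet gel limits gas exchange, which in roots is followed through low-oxygen genes such as ADH1 and PDC1.

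Total counts ran from 34273236 (CR replicate 2) to 117091661 (CR replicate 1), and the other 10 libraries held 48974482 to 90007788. All 12 root markers examined, among them PIN2, CASP1, SHR and SCR, were detected in every library, at 10.9 CPM or more. Summed over 20 detected green tissue genes, CR held 555 to 651 CPM and the controls 320.1 to 945 CPM. Transcripts of the mitochondrial genome made up 1.01% to 1.52% of the counts in Q2R and 0.196% to 0.324% elsewhere. CR replicates 2 and 3 stood apart from the other 10 root libraries in transcript length. Of every 1000000 counts, 10954 and 10196 fell on transcripts shorter than 600 bases in these libraries, against 6868 in CR replicate 1 and 5977 to 7348 in the controls. In the shortest class, the median gene lay 0.44 and 0.43 above the control mean on the log2 scale in CR replicates 2 and 3 and 0.03 above it in CR replicate 1. In transcripts of 3000 bases or more, the same medians were -0.20, -0.15 and 0.07.

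**Figure D1:**
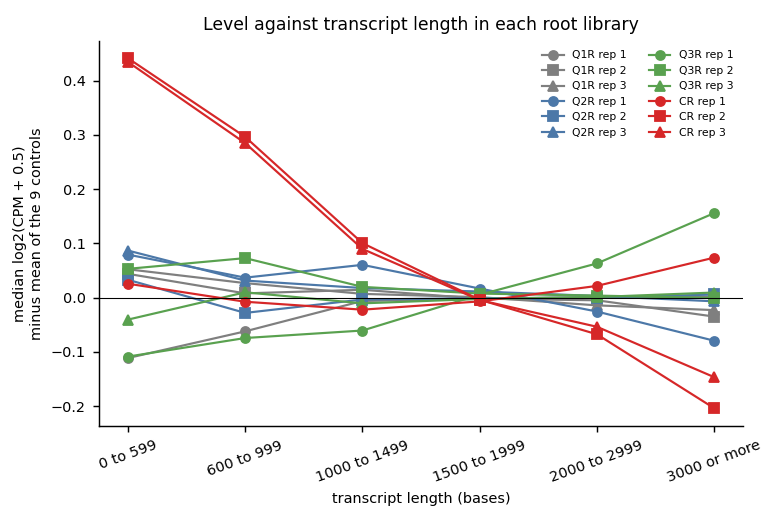
Median log2(CPM + 0.5) of each of the 12 root libraries relative to the mean of the 9 control libraries, by transcript length class in bases, for genes with a mean of at least 1 CPM (319 to 4908 genes a class). CR replicates 2 and 3 fall from 0.44 and 0.43 in the shortest class to -0.20 and -0.15 in the longest, while CR replicate 1 runs from 0.03 to 0.07 beside the controls.

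Of 21987 genes tested, 88 were differentially expressed genes (DEGs, adjusted p of 0.05 or less and a log2 fold change of 1 or more in size), which is 0.400% of all genes. In CR, 76 of them were higher (0.346%) and 12 were lower (0.0546%). Without the fold threshold, 463 genes were higher and 111 lower, or 2.11% and 0.505%. Without CR replicate 1 these numbers were 1554 and 1083, and with DESeq2 907 and 558, so the balance between higher and lower calls moved with both. Genes for glycine-rich proteins, RNA of the plastid genome, lipid transfer proteins and short ribosomal proteins were among the DEGs that were higher. The sucrose exporter genes SWEET11 and SWEET12 and the peptide gene CEP5 were among the few that were lower. The median log2 fold change was 1.27 over the higher DEGs and -1.19 over the lower ones. In whole roots, fewer cells of a type and less RNA per cell cannot be told apart.

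The 3 clinorotated libraries did not contribute alike. CR replicate 1 lay inside the range of the 9 control libraries for 65 of the 88 DEGs, while CR replicate 2 did so for 12 and CR replicate 3 for 11. In 71 DEGs both CR replicates 2 and 3 lay outside the control range, and in 19 all 3 did (14 above and 5 below). Over all genes tested, all 3 CR libraries lay above all 9 controls in 0.982% and below them in 0.878%. Leaving out CR replicate 1 gave 245 DEGs higher and 36 lower, and 86 of the 88 were still called. Leaving out CR replicate 2 gave 3 higher and 0 lower, and leaving out CR replicate 3 gave the same numbers. At an unadjusted p of 0.05 or less, 2132 and 2247 genes passed in those fits. The 3 genes that kept their call in both were GRP5, AT4G29020 and AT4G21620, and no other gene reached an adjusted p of 0.05 or less in either fit, so no list count below, other than that for glycine-rich proteins, holds a call without either library. With the counts of each KFT summed into 1 library, edgeR called 0 genes, with 437 at an unadjusted p of 0.05 or less.

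**Figure D2:**
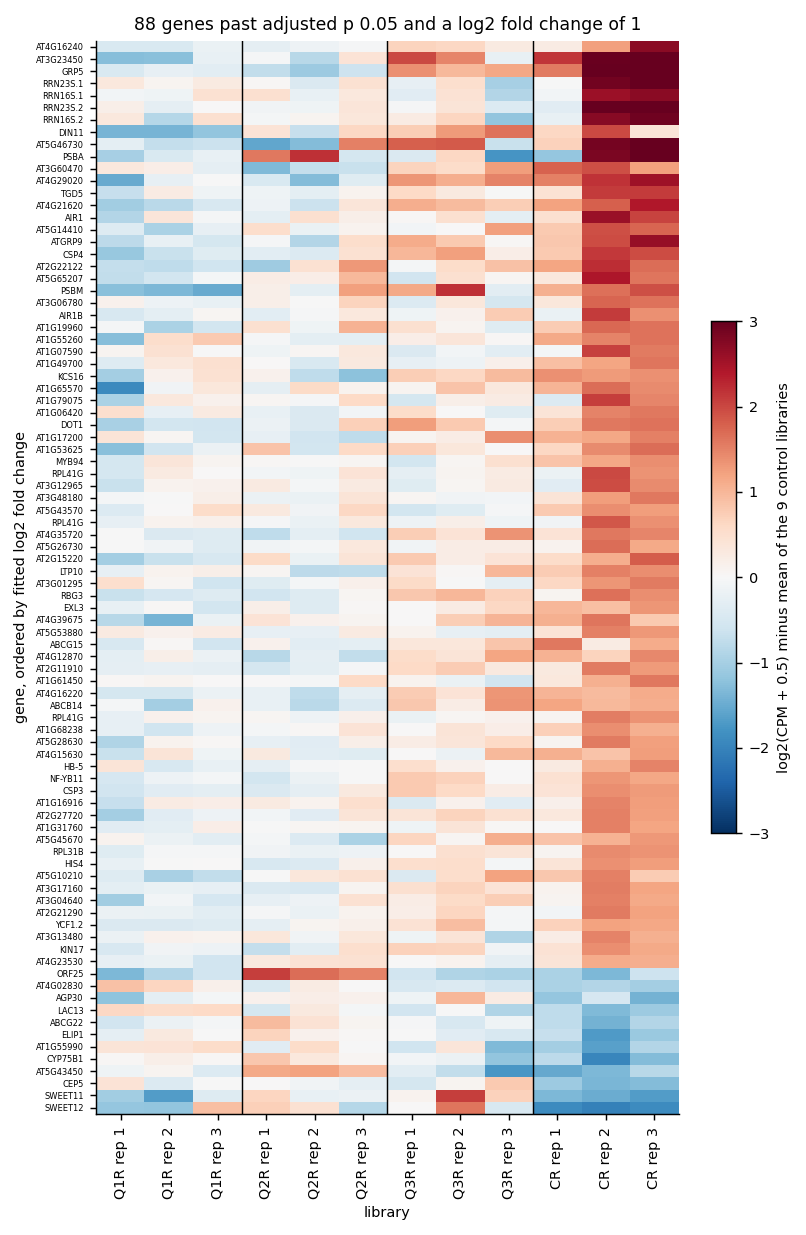
Log2(CPM + 0.5) of the 88 DEGs (rows, ordered by fitted log2 fold change) in the 12 root libraries (columns), relative to the mean of the 9 controls. Colours stop at -3 and 3. CR replicates 2 and 3 are far above the controls in most of the 76 higher genes, while CR replicate 1 is within the control range in 65 of the 88.

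The number of calls differed with the control used. Against Q1R alone 192 genes were higher and 35 lower (1.03% of genes tested), and against Q2R alone 107 were higher and 74 lower (0.823%). Against the time-matched Q3R edgeR called 0 genes, while 3531 passed an unadjusted p of 0.05 or less and DESeq2 called 38 higher and 8 lower. Leaving out CR replicate 1 gave 157 higher and 22 lower against Q3R. These comparisons share the CR libraries with the pooled one and are not independent of it. The median over the 76 higher DEGs was 1.47 against Q1R, 1.27 against Q2R and 0.97 against Q3R. Over the 12 lower DEGs it was -1.33, -1.62 and -0.88. The pooled contrast chose these genes, so the medians are a description. The control groups also differed among themselves. Q3R had 90 genes higher and 77 lower than Q1R and 71 higher and 175 lower than Q2R, and Q2R had 35 higher and 5 lower than Q1R (0.760%, 1.12% and 0.182%). In the test over all 3 control groups, 2226 genes reached an adjusted p of 0.05 or less, 358 of them with a log2 difference of 1 or more (1.63%). Dropping Q1R from the pool left 3 DEGs higher and 1 lower, dropping Q2R left 22 and 2, and dropping Q3R gave 162 and 51.

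**Figure D3:**
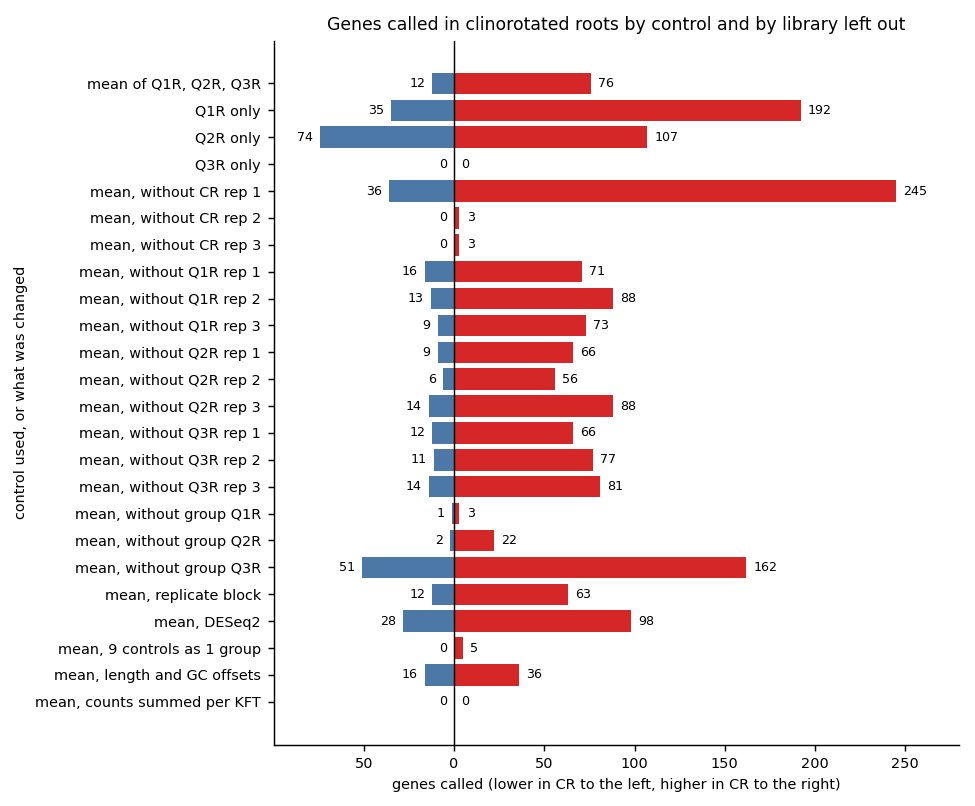
Number of genes called (adjusted p of 0.05 or less and a log2 fold change of 1 or more) as higher in CR (right) or lower in CR (left), by control and by what was changed. Bars run from 0 against Q3R alone and with counts summed per KFT to 245 higher without CR replicate 1.

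Genes for glycine-rich proteins led the DEGs. Many of these proteins are secreted into the cell wall, and others bind RNA. GRP5, a glycine-rich protein gene, had the smallest adjusted p of all genes. Its coding sequence (AT3G20470, RefSeq TAIR10.1 chromosome 3, minus strand) and that of ATGRP9 (AT2G05440, chromosome 2, plus strand) are shown for their glycine codon repeats. Membership of the group was taken from the gene annotation, not from the codons. The stretches are the first 240 coding bases of each, at chr3:7140910-7141149 and chr2:1993134-1993731 (introns left out in the latter), with codons for glycine in capitals.
GRP5: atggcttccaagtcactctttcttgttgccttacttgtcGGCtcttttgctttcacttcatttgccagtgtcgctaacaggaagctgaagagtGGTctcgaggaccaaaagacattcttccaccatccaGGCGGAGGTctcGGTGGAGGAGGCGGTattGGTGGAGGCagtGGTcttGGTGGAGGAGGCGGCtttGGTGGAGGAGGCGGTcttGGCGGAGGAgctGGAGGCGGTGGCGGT
ATGRP9: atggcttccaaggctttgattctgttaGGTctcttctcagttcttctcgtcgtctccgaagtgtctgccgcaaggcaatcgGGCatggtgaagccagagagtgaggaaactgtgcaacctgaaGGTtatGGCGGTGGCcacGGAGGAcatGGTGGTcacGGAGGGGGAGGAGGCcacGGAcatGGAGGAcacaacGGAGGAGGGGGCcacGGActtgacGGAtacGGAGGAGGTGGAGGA
Glycine codons make up 58.0% of the 174 codons of GRP5 and 44.3% of the 131 codons of ATGRP9.

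GRP5 stood at 9.73, 11.3 and 10.8 CPM in Q1R replicates 1 to 3, 7.94, 6.07 and 8.66 in Q2R, 35.7, 27.0 and 31.0 in Q3R and 40.8, 122 and 178 in CR. All 3 CR libraries were above all 9 controls, CR replicate 1 by little, and Q3R was above Q1R and Q2R. CR averaged 113 ± 68.8 CPM (SD, n = 3) and Q3R 31.3 ± 4.34 CPM (SD, n = 3). The log2 fold change was 3.06 ± 0.24 with an adjusted p of 2.02e-05, and 3.00 (adjusted p = 0.000239) without CR replicate 2. Against Q3R alone it was 1.86 ± 0.34, with an adjusted p of 0.0649.

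ATGRP9, with the repeat shown above, was among the most abundant DEGs, at 730.5, 1078 and 867 CPM in Q1R, 1217, 682 and 1817 in Q2R, 2724, 2158 and 1287 in Q3R and 2201, 4913 and 7679 in CR. CR replicate 1 lay between Q3R replicates 1 and 2, while CR replicates 2 and 3 were above every control. Its log2 fold change was 1.91 ± 0.28 (adjusted p = 0.00743), and 2.26 without CR replicate 1. AT4G29020, a putative glycine-rich protein gene, had 42.0, 67.1 and 86.8 CPM in CR against 4.77 to 41.3 CPM in the controls (log2 fold change 2.11 ± 0.25, adjusted p = 0.00144). The highest control, Q3R replicate 3, was just under CR replicate 1. AT3G23450, annotated as a transmembrane protein, had 6.06, 11.2 and 20.7 CPM in CR and 0.115 to 5.40 CPM in the controls (log2 fold change 3.63 ± 0.52, adjusted p = 0.00743). AT4G16240, annotated as a glycine-rich protein homolog, had the largest fitted fold change of the 88 DEGs (log2 fold change 3.83 ± 0.89, adjusted p = 0.0329) on few counts, at 0.302, 1.11 and 3.93 CPM against 0 to 0.578 CPM. With CR replicate 1 at 0.302 CPM, its groups overlapped. AT5G46730 overlapped likewise, with 5.74, 28.0 and 41.1 CPM in CR and 13.1, 13.4 and 1.94 in Q3R (log2 fold change 2.49 ± 0.61, adjusted p = 0.0408).

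AT4G21620, a glycine-rich protein gene and the last of the 3 that kept their call, had 18.4, 28.1 and 43.4 CPM in CR against 17.1, 15.3 and 13.2 in Q3R and 3.52, 4.19 and 5.36 in Q1R (log2 fold change 1.93 ± 0.22, adjusted p = 0.00126). Over the family, 21 of 63 genes annotated as glycine-rich were higher at an adjusted p of 0.05 or less and 2 were lower, beside 2.11% and 0.505% of all genes tested. The family was picked after its values were seen, so this is a description. Its median log2 fold change was 0.75 against 0.01 over all genes, and 0.41 against Q3R alone. Summed, its members held 2944 to 3822 CPM in Q1R, 3542 to 5674 in Q2R, 4691 to 7461 in Q3R and 6076 to 14698 in CR, so the lowest CR library lay inside the range of Q3R. Only 3 members were higher without CR replicate 2 and 3 without CR replicate 3, and 17 were higher with transcript length and GC content taken into account. DOT1, a glycine-rich protein gene named for leaf vein patterning, had 543, 980.2 and 1012 CPM in CR against 167 to 781 CPM (adjusted p = 0.0163). RBG3, a glycine-rich RNA-binding protein gene, had 43.4, 129 and 107 CPM against 25.2 to 81.1 CPM (log2 fold change 1.18 ± 0.21, adjusted p = 0.0158). In both genes CR replicate 1 was under the top of the control range. The exception in direction among the DEGs, AT1G55990, had 23.7, 15.4 and 26.2 CPM against 19.1 to 71.1 CPM (log2 fold change -1.22 ± 0.28, adjusted p = 0.0315).

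All 4 cold shock domain protein genes were higher at an adjusted p of 0.05 or less, beside 2.11% of all genes tested. These proteins bind RNA and unwind its structure, and the group was also picked after its values were seen. It is not separate from the glycine-rich family, since CSP4 is counted in both. CSP4 stood at 12.2, 17.0 and 21.2 CPM in Q1R, 21.6, 20.2 and 37.7 in Q2R, 54.7, 64.4 and 31.5 in Q3R and 47.6, 120.1 and 108 in CR (log2 fold change 1.70 ± 0.25, adjusted p = 0.00743). CSP3 had 35.8, 71.7 and 66.2 CPM in CR against 18.1 to 47.2 CPM (log2 fold change 1.08 ± 0.18, adjusted p = 0.0135). In both, CR replicate 1 lay inside the range of Q3R and above every library of Q1R. CSP2 (log2 fold change 0.92 ± 0.17, adjusted p = 0.0167) and CSP1 (log2 fold change 0.70 ± 0.14, adjusted p = 0.0197) changed less. Against Q3R alone the 4 log2 fold changes were 0.87 (CSP4), 0.53 (CSP3), 0.22 (CSP2) and 0.17 (CSP1), with adjusted p-values of 0.197, 0.273, 0.678 and 0.688.

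RNA of the plastid genome supplied 7 of the 76 higher DEGs, 8 of 88 tested plastid genes passed the adjusted p in the higher direction, and 0 in the lower, beside 2.11% and 0.505% of all genes. The rest did not share a direction. The list's median log2 fold change was 0.23 with 52 of 88 above 0, and -0.72 against Q2R alone, -0.13 with the controls as 1 group and -0.19 with counts summed per KFT. With the 7 members that were at 0 in a group set to their bound, it was 0.19. The largest differences among them were in the ribosomal RNAs, which lack the long poly(A) tails of nuclear messenger RNA. The 2 plastid copies of each rRNA lie in the inverted repeat and their reads cannot be told apart with certainty. RRN23S.2 stood at 2.37, 1.60 and 2.06 CPM in Q1R, 1.84, 1.82 and 2.76 in Q2R, 1.95, 2.78 and 1.39 in Q3R and 1.48, 19.7 and 20.7 in CR. CR replicates 2 and 3 were far above every control and CR replicate 1 was among the controls (log2 fold change 2.75 ± 0.44, adjusted p = 0.0108). RRN23S.1, RRN16S.1 and RRN16S.2 had the same split, with log2 fold changes of 2.82, 2.78 and 2.74 and adjusted p-values of 0.0156, 0.0255 and 0.037.

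PSBA, which encodes the D1 protein of photosystem II, had 1.55, 31.6 and 47.8 CPM in CR (log2 fold change 2.48 ± 0.63, adjusted p = 0.0466). The controls ranged from 0.846 to 20.4 CPM, with Q2R replicates 1 and 2 the highest at 13.3 and 20.4. YCF1.2, the reading frame for a subunit of the plastid protein import channel, rose less but more evenly, with 38.6, 55.4 and 53.0 CPM against 17.3 to 45.3 CPM (log2 fold change 1.03 ± 0.16, adjusted p = 0.0103), and CR replicate 1 was below Q3R replicate 2. PSBM, a small photosystem II subunit, had 10.2, 15.5 and 19.0 CPM against 1.28 to 22.5 CPM (log2 fold change 1.59 ± 0.37, adjusted p = 0.0338). The plastid genome as a whole held 209.9 to 389.8 CPM in CR, 148 to 158 in Q1R, 184 to 352 in Q2R and 166 to 294 in Q3R. Of 20 tested nuclear genes of green tissue, edgeR called 0, with 7 at an unadjusted p of 0.05 or less, and DESeq2 called 1 higher. Their median log2 fold change was 0.10, and -0.19, -0.02 and 0.69 against Q1R, Q2R and Q3R. The member with the smallest p was LHCB1.1 (AT1G29920), a light-harvesting protein gene with near-identical copies, at 2.02, 13.4 and 4.61 CPM against 0.141 to 3.43 CPM (log2 fold change 2.04, adjusted p = 0.0685).

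Genes for cytosolic ribosomal proteins, which build the ribosome outside the organelles, were higher where they passed the test. The list was formed from words in the gene annotation, so it can miss members or hold others. RPL31B, given below, is not in it. Of 204 tested, 50 (24.5%) were higher and 0 lower, beside 2.11% and 0.505% of all genes. The median log2 fold change was 0.26, with 0.35 against Q1R, 0.47 against Q2R and -0.03 against Q3R. Their transcripts are short, with a median of 919 bases against 1680.0 over all genes. With length and GC content taken into account, 17 of the members tested were higher and the median was 0.12. Without CR replicate 1, 105 were higher, as were 1554 of all 22467 genes tested in that fit. Summed, they held 58529 to 59049 CPM in Q1R, 54384 to 57289 in Q2R, 70922 to 85028 in Q3R and 61626 to 88717 in CR.

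RPL41 is the shortest ribosomal protein. Its 3 DEG copies on chromosome 3 share nearly all of their coding sequence, printed here because counts of uniquely mapped reads cannot fully separate them. AT3G08520 lies on the plus strand at chr3:2586032-2586206, AT3G11120 on the plus strand at chr3:3481128-3481304 and AT3G56020 on the minus strand at chr3:20790826-20791043 (RefSeq TAIR10.1, introns left out). The second and the third were picked after their values were seen. Capitals mark bases that differ from AT3G08520.
AT3G08520: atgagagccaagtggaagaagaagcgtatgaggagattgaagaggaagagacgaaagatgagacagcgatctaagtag
AT3G11120: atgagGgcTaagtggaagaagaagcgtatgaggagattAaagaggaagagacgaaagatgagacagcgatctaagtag
AT3G56020: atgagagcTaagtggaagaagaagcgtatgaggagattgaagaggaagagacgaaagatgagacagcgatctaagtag
Over 78 bases, AT3G11120 differs from AT3G08520 at 3 and AT3G56020 at 1. AT3G08520 stood at 104, 284 and 252 CPM in CR replicates 1 to 3 against 82.3 to 109 CPM (median 103) in the controls (log2 fold change 1.11 ± 0.19, adjusted p = 0.014). CR replicate 1 was inside that range and the other two were above it. AT3G11120 had 81.4, 319 and 229 CPM against 74.1 to 109 CPM (log2 fold change 1.24 ± 0.24, adjusted p = 0.0197), and AT3G56020 had 116, 523 and 337 CPM against 91.6 to 175 CPM (log2 fold change 1.27 ± 0.27, adjusted p = 0.0235). With length and GC content taken into account, the 3 log2 fold changes were 0.57, 0.68 and 0.78, with adjusted p-values of 0.023, 0.0457 and 0.0622. The higher DEGs had a median transcript length of 921 bases, against 1346 for the lower DEGs and 1680 for all genes tested. How far the length difference of CR replicates 2 and 3 enters these counts was tested only by the length and GC correction, which left 46 called of the 80 DEGs with a known length. The organelle genes had none.

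The acidic stalk protein genes RPP1A (log2 fold change 0.79 ± 0.12, adjusted p = 0.0103) and RPP1C (log2 fold change 0.87 ± 0.15, adjusted p = 0.0135) were also higher. So were RPL38A (log2 fold change 0.68 ± 0.11, adjusted p = 0.0135), RPL9D (log2 fold change 0.68 ± 0.12, adjusted p = 0.0163) and RPL23A (log2 fold change 0.58 ± 0.11, adjusted p = 0.0163). Against Q3R alone the log2 fold changes of these genes were 0.39, 0.34, 0.41, 0.08 and 0.23 in the order named, and edgeR called 0. RPL31B, also picked afterwards, had 115, 292 and 276 CPM in CR against 84.5 to 151 CPM (log2 fold change 1.06 ± 0.18, adjusted p = 0.0154). Histone genes, another family of short transcripts (median 853 bases), had 10 of 37 members higher and 0 lower, beside 2.11% and 0.505% of all genes. The median was 0.29, and 0.22 against Q3R, where edgeR called 0. With length and GC content taken into account 2 were higher. HIS4, a histone H4 gene, had 49.4, 98.1 and 89.9 CPM against 26.8 to 54.3 CPM (log2 fold change 1.05 ± 0.18, adjusted p = 0.0135). Histone H4 is encoded by near-identical genes, and AT3G45930 (log2 fold change 0.68 ± 0.14, adjusted p = 0.0207), AT1G07820 (log2 fold change 0.65 ± 0.13, adjusted p = 0.0207), AT5G59690 (log2 fold change 0.59 ± 0.13, adjusted p = 0.0246) and AT3G53730 (log2 fold change 0.52 ± 0.12, adjusted p = 0.0317) had smaller changes, as did the H2B gene AT5G22880 (log2 fold change 0.48 ± 0.11, adjusted p = 0.0336).

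**Figure D4:**
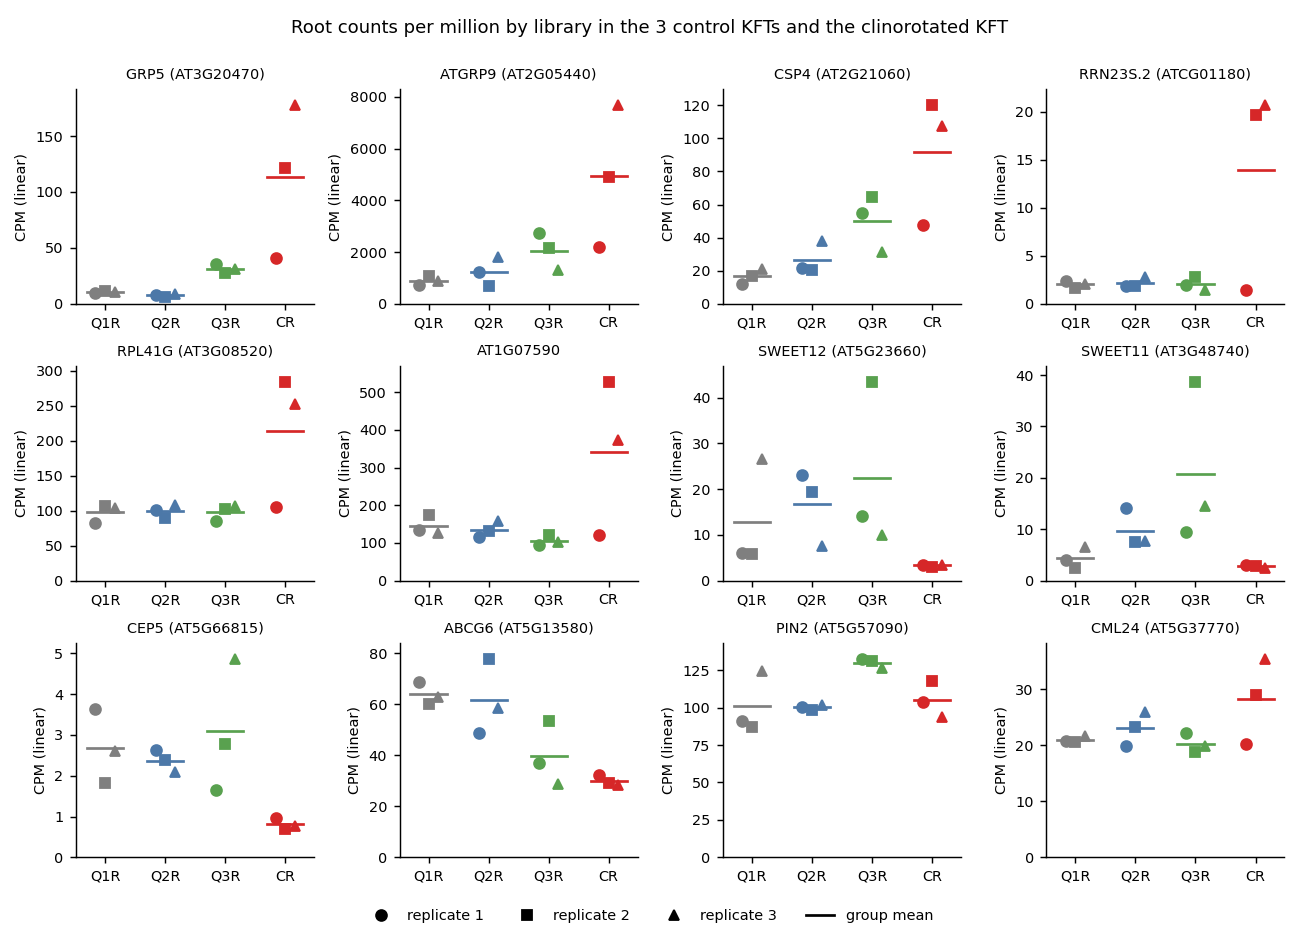
CPM (linear axes from 0) of 12 genes in Q1R, Q2R, Q3R and CR, 1 point per library with its replicate number as the marker shape and a line at the group mean. In the first 6 genes CR replicates 2 and 3 sit above all controls and CR replicate 1 below both, in SWEET12, SWEET11, CEP5 and ABCG6 the 3 CR libraries sit together, and PIN2 and CML24 did not pass the test.

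Some DEGs that were higher encode lipid transfer proteins or act on lipids. AIR1, an auxin-induced root gene for a putative lipid-binding protein, had 13.6, 59.7 and 40.6 CPM in CR against 4.96 to 13.6 CPM (log2 fold change 1.92 ± 0.31, adjusted p = 0.0108). CR replicate 1 equalled the highest control to the digits shown. Its neighbour AIR1B had 1.70, 10.2 and 6.02 CPM against 1.31 to 3.76 CPM (log2 fold change 1.52 ± 0.38, adjusted p = 0.0457). LTP10, a non-specific lipid transfer protein gene, had 139, 233 and 216 CPM against 47.3 to 163 CPM (log2 fold change 1.23 ± 0.20, adjusted p = 0.0108). Here CR replicate 1 was below the highest control, Q3R replicate 3. Of 65 annotated lipid transfer genes, 7 were higher and 2 lower, beside 2.11% and 0.505% of all genes, a group again chosen after its values were seen. Its median was 0.12, but -0.10 with length and GC content taken into account, where 4 were higher and 3 lower. KCS16, which elongates very long chain fatty acids, had 9.98, 9.32 and 9.93 CPM in CR, all 3 above the controls at 1.22 to 7.37 CPM (log2 fold change 1.37 ± 0.30, adjusted p = 0.0275). MYB94, a regulator of cuticular wax synthesis, had 4.15, 5.27 and 6.33 CPM, also all above 1.27 to 3.10 CPM (log2 fold change 1.29 ± 0.29, adjusted p = 0.031). TGD5, needed for lipid trafficking into the chloroplast, had 1.94, 7.16 and 7.24 CPM against 0.615 to 2.25 CPM (log2 fold change 2.03 ± 0.38, adjusted p = 0.0167). These genes, apart from AIR1, were chosen after their values were seen.

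DIN11 and AT3G60470 were among the 12 higher DEGs with the largest fold changes. DIN11, a dark-inducible dioxygenase gene, had 1.54, 4.74 and 1.22 CPM in CR and 1.72, 2.69 and 3.61 in Q3R, while Q1R was at 0, 0 and 0.0799 (log2 fold change 2.50 ± 0.62, adjusted p = 0.0438). CR and Q3R overlapped, with a log2 difference of -0.11 (adjusted p = 0.97). AT3G60470, a DUF247 protein gene, had 4.74, 5.36 and 3.08 CPM against 0.107 to 3.16 CPM (log2 fold change 2.20 ± 0.38, adjusted p = 0.0155). AT1G07590, a pentatricopeptide repeat protein gene chosen after its values were seen, had 121, 527 and 372 CPM against 93.5 to 174 CPM (log2 fold change 1.42 ± 0.25, adjusted p = 0.0156). CR replicate 1 was again at the control level.

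Several further DEGs had all 3 CR libraries above the controls, and these were also picked after their values were seen. AT1G55260, a lipid transfer protein family gene, had 10.2, 13.1 and 14.5 CPM in CR against 1.50 to 7.84 CPM (log2 fold change 1.43 ± 0.30, adjusted p = 0.0217). AT1G65570, a pectin lyase-like gene, had 14.2, 22.6 and 18.8 CPM against 1.40 to 12.5 CPM (log2 fold change 1.33 ± 0.33, adjusted p = 0.0414). AT5G43570, a potato inhibitor I type serine protease inhibitor gene, had 5.21, 8.15 and 7.36 CPM against 1.75 to 4.55 CPM (log2 fold change 1.27 ± 0.26, adjusted p = 0.0218). The short uncharacterized genes AT1G68238 (log2 fold change 1.11 ± 0.16, adjusted p = 0.00743) and AT5G53880 (log2 fold change 1.16 ± 0.18, adjusted p = 0.0103) were separated in the same way. EXL3 (AT1G75900), a GDSL esterase gene, had 7.79, 7.31 and 9.89 CPM, above 2.37 to 5.88 CPM (log2 fold change 1.16 ± 0.21, adjusted p = 0.0167). Of the other GDSL esterase genes among the DEGs, AT5G45670 had 27.2, 31.3 and 37.7 CPM (log2 fold change 1.07 ± 0.19, adjusted p = 0.0163) and AT4G16220 had 7.10, 6.83 and 7.73 CPM (log2 fold change 1.13 ± 0.23, adjusted p = 0.0207), and both overlapped the controls, which reached 32.1 and 8.96 CPM. The transporter gene ABCG15 had its highest CR value in CR replicate 1, at 13.4, 5.01 and 9.58 CPM against 2.61 to 7.76 CPM (log2 fold change 1.16 ± 0.25, adjusted p = 0.0246). ABCB14, of the auxin transporter family, was at 9.99, 8.63 and 9.45 CPM in CR and 7.68, 4.89 and 11.4 in Q3R (log2 fold change 1.12 ± 0.26, adjusted p = 0.0336), so its groups overlapped through Q3R.

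Among the 12 genes that fell, SWEET11 and SWEET12 had the largest fold changes. Both are plasma membrane sucrose exporters, known for phloem loading in leaves. SWEET12 stood at 6.02, 5.88 and 26.6 CPM in Q1R, 23.1, 19.3 and 7.57 in Q2R, 14.1, 43.4 and 9.94 in Q3R and 3.43, 3.06 and 3.41 in CR. The controls spread widely within each KFT, and all 3 CR libraries were below the lowest of them. Its log2 fold change was -2.35 ± 0.55 (adjusted p = 0.0332), and -2.38 (adjusted p = 0.031) without CR replicate 1. Against Q3R it was -2.77 ± 0.61 (adjusted p = 0.0747). SWEET11 stood at 3.96, 2.38 and 6.62 CPM in Q1R, 14.0, 7.42 and 7.69 in Q2R, 9.41, 38.6 and 14.4 in Q3R and 3.12, 2.82 and 2.38 in CR. CR overlapped Q1R, through Q1R replicate 2, and lay below every library of Q2R and Q3R. The log2 fold change was -1.78 ± 0.40 (adjusted p = 0.0299), and -2.91 ± 0.47 (adjusted p = 0.0649) against Q3R.

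CEP5 encodes the precursor of a secreted signalling peptide that restrains lateral root formation. It was low throughout but separated, at 0.966, 0.689 and 0.765 CPM in CR against 1.65 to 4.87 CPM (median 2.60) in the controls (log2 fold change -1.73 ± 0.40, adjusted p = 0.0336). TT7 (CYP75B1), the flavonoid 3'-hydroxylase, had 9.14, 3.78 and 6.16 CPM against 6.80 to 28.3 CPM (log2 fold change -1.35 ± 0.27, adjusted p = 0.0207). ELIP1, an early light-induced protein gene, had 8.71, 4.05 and 6.37 CPM against 10.1 to 23.0 CPM (log2 fold change -1.17 ± 0.22, adjusted p = 0.0197). ABCG22, an ABC transporter gene, had 2.80, 1.59 and 2.52 CPM against 3.25 to 10.4 CPM (log2 fold change -1.16 ± 0.27, adjusted p = 0.0335). ELIP1, ABCG22 and CEP5 were below every control in all 3 CR libraries, as was the uncharacterized AT4G02830 (log2 fold change -1.03 ± 0.19, adjusted p = 0.0163). TT7 overlapped Q3R replicate 3.

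AGP30, a root arabinogalactan protein gene, had 66.5, 105 and 55.1 CPM against 64.4 to 299 CPM (log2 fold change -1.04 ± 0.25, adjusted p = 0.0404). LAC13, a laccase gene, had 12.4, 8.18 and 9.62 CPM against 11.1 to 32.9 CPM (log2 fold change -1.09 ± 0.20, adjusted p = 0.0167). The groups overlapped for both. AT5G43450, of the 2-oxoglutarate-dependent oxygenase family, had 1.54, 1.83 and 2.81 CPM in CR but was 12.6, 13.2 and 10.8 CPM in Q2R and 4.29, 3.05 and 1.28 in Q3R (log2 fold change -1.44 ± 0.31, adjusted p = 0.0255). The mitochondrial gene ORF25 differed from CR mainly in Q2R, with 3.75, 2.76 and 4.84 CPM in CR, 2.71, 3.99 and 5.07 CPM in Q1R, 4.24 ± 0.667 CPM (SD, n = 3) in Q3R and 33.9, 25.8 and 22.5 in Q2R (log2 fold change -1.02 ± 0.22, adjusted p = 0.0247). Over the mitochondrial genome, 0 of 66 tested genes were higher and 1 lower, beside 2.11% and 0.505% of all genes, and DESeq2 called 7 lower. The list's median log2 fold change was -0.71, with 12 of 66 above 0. It was 0.09 against Q1R, -1.97 against Q2R, where 24 were lower, and 0.03 against Q3R.

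The genes for suberin, the polyester that seals the endodermis, were lower where they passed the test. Of 21 tested genes for suberin and the Casparian strip, 4 (19.0%) were lower and 0 higher, beside 0.505% of all genes, with a median log2 fold change of -0.42. The 4 were ABCG6, a suberin exporter, HHT1 (ASFT), which adds ferulate, GPAT5, an acyltransferase, and FAR4, a fatty acyl reductase. ABCG6 stood at 68.6, 60.2 and 63.0 CPM in Q1R, 48.7, 77.8 and 58.4 in Q2R, 37.0, 53.2 and 28.8 in Q3R and 32.1, 29.3 and 28.2 in CR (log2 fold change -0.85 ± 0.17, adjusted p = 0.0197). CR was below Q1R and Q2R and overlapped Q3R. HHT1 had 86.7, 73.9 and 74.9 CPM in CR and 86.8, 87.9 and 84.7 in Q3R against 143 ± 5.15 CPM (SD, n = 3) in Q1R and 128 ± 6.20 CPM (SD, n = 3) in Q2R (log2 fold change -0.57 ± 0.08, adjusted p = 0.00743). GPAT5 had 15.1, 18.0 and 15.7 CPM against 18.4 to 40.5 CPM (log2 fold change -0.66 ± 0.16, adjusted p = 0.0346), and FAR4 24.9, 21.6 and 22.5 CPM against 22.9 to 50.0 CPM (log2 fold change -0.51 ± 0.10, adjusted p = 0.0217). Against Q3R alone the list's median was -0.07 and the 4 log2 fold changes were -0.41, -0.14, -0.35 and -0.05 in the order named. The adjusted p-values of that contrast were 0.31, 0.513, 0.371 and 0.882.

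In the 4 nutrient lists every gene that passed in edgeR was lower, beside 0.505% of all genes. In the phosphate list 1 of 23 members was lower and 0 higher (median -0.43). It was PHT1-4, a phosphate transporter, with 20.6, 21.0 and 23.4 CPM in CR, all below the controls at 23.6 to 60.3 CPM (log2 fold change -0.90 ± 0.18, adjusted p = 0.0207). In the nitrate list 2 of 21 were lower (median -0.19), namely the ammonium transporter AMT1-2 (log2 fold change -0.51 ± 0.13, adjusted p = 0.0466) and NRT3.1, the partner of the nitrate transporter NRT2.1 (log2 fold change -0.35 ± 0.09, adjusted p = 0.0444). In the iron list edgeR called 0 of 24 (5 at an unadjusted p of 0.05 or less, DESeq2 2 lower, median -0.26), and ABCG37, which exports coumarins, had the smallest p at a log2 difference of -0.36 (adjusted p = 0.0718). In the sulfur list it called 0 of 18 (4 at an unadjusted p of 0.05 or less, DESeq2 2 lower, median -0.09), the smallest p being that of the sulfate transporter SULTR1;2 at -0.40 (adjusted p = 0.0538).

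None of the 29 tested genes of gravity sensing and auxin transport passed in edgeR or DESeq2, and 4 had an unadjusted p of 0.05 or less in edgeR. Over all genes tested, 4129 of 21987 did. The median log2 fold change of the list was -0.06. PIN2, the shootward auxin carrier of the root epidermis, stood at 90.8, 86.9 and 125 CPM in Q1R, 100.2, 98.4 and 102 in Q2R, 133, 131 and 126 in Q3R and 104, 118 and 93.7 in CR. CR lay inside the control range, with a log2 difference of -0.06 ± 0.11 (adjusted p = 0.825). PIN3 and PIN7, auxin carriers of the columella, differed by -0.24 ± 0.12 and 0.01 ± 0.13, and the influx carrier AUX1 by -0.16 ± 0.09. ARG1 (ATJ15 in the files), a DnaJ-like protein of gravity signalling, differed by -0.01 ± 0.08. PGM (PGMP), which starch synthesis in amyloplasts requires, differed by -0.05 ± 0.11, and AT1G72490 by -0.10 ± 0.24. The member with the smallest p was the auxin transporter ABCB4 at -0.25 (adjusted p = 0.197). Leaving out CR replicate 1 gave 5 members lower and 0 higher, where 1083 of all 22467 genes tested were lower and 1554 higher. AUX1 was then at -0.28 (adjusted p = 0.0379).

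Among 28 touch, calcium and early wound genes 0 passed in edgeR or DESeq2, 4 had an unadjusted p of 0.05 or less in edgeR, and the median was -0.04. CML38, a calmodulin-like gene, had the smallest p, with 3.91, 4.38 and 6.85 CPM in CR, all above the controls at 0.769 to 3.64 CPM (log2 difference 1.06 ± 0.34, adjusted p = 0.105). CML24 (TCH2) had 20.2, 29.0 and 35.4 CPM against 18.8 to 25.9 CPM, a difference of 0.40 ± 0.14 (adjusted p = 0.13). CR replicate 1 was at the control level, and without it the adjusted p was 0.0065. CML12 (TCH3) differed by 0.13 ± 0.25 and XTH22 (TCH4), a wall-loosening enzyme gene, by -0.26 ± 0.26. In the auxin response list 2 of 21 were higher and 0 lower (median -0.08), beside 2.11% and 0.505% of all genes. They were AIR1, given above, and the repressor IAA17 with 139, 201 and 206 CPM against 115 to 148 CPM (log2 fold change 0.50 ± 0.11, adjusted p = 0.0255).

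In the heat shock list 2 of 26 members were higher and 0 lower, beside 2.11% and 0.505% of all genes, with a median of 0.34. The same shares stand beside the counts of the other lists in this paragraph. Without CR replicate 1, 8 members were higher, as were 1554 of all 22467 genes tested in that fit. HSP18.1, a small chaperone gene, had 14.3, 16.9 and 21.5 CPM in CR, all above the controls at 5.90 to 13.7 CPM (log2 fold change 0.99 ± 0.18, adjusted p = 0.0167). HSFA7A, a heat stress transcription factor gene, had 35.6, 61.5 and 53.6 CPM against 24.5 to 40.5 CPM (log2 fold change 0.78 ± 0.14, adjusted p = 0.0163), with CR replicate 1 inside the range. HSFA2 and the disaggregase HSP101 (CLPB1) differed by 0.80 ± 0.57 and 0.17 ± 0.12 and did not pass (adjusted p = 0.488 and 0.515). Among 28 core hypoxia genes 1 was higher, AT4G39675 (log2 fold change 1.16 ± 0.22, adjusted p = 0.0174), and 1 lower, the alanine aminotransferase ALAAT1 (log2 fold change -0.38 ± 0.08, adjusted p = 0.0248). The fermentation genes ADH1 and PDC1 differed by 0.14 ± 0.19 and -0.37 ± 0.20 (adjusted p = 0.757 and 0.337). In the cold and ABA list the 2 members higher of 23 were KIN1 (log2 fold change 0.82 ± 0.17, adjusted p = 0.0217) and KIN2 (log2 fold change 0.50 ± 0.12, adjusted p = 0.0437), adjacent and similar genes whose reads may be split. In the clock list the 2 higher of 23 were ELF4 (log2 fold change 0.68 ± 0.16, adjusted p = 0.0344) and RBG7 (log2 fold change 0.81 ± 0.17, adjusted p = 0.0236), and RBG7 was at 1199.7, 1925 and 1899 CPM in CR and 1588, 1834 and 1223 in Q3R.

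The lists of wall and hair genes held few calls each. Over all genes tested 2.11% were higher and 0.505% lower, the shares to set beside each count in this paragraph. The root hair list had 0 higher and 1 lower of 20 (9 at an unadjusted p of 0.05 or less, median -0.29). Only 1 of the 20 members had a log2 fold change above 0. The list's median was -0.30, -0.32 and -0.28 against Q1R, Q2R and Q3R. Its lower calls numbered 8 without CR replicate 1, where 1083 of all 22467 genes tested were lower. Without CR replicate 2 or 3 there were 0. The root hair gene called, the peroxidase PER73, had 167, 151 and 135 CPM in CR, all below the controls at 185 to 267 CPM (log2 fold change -0.58 ± 0.11, adjusted p = 0.0197). Class III peroxidases had 1 higher (1.47%) and 3 lower (4.41%) of 68 (median -0.12). PER16 (log2 fold change -0.51 ± 0.11, adjusted p = 0.026) and PER72 (log2 fold change -0.50 ± 0.12, adjusted p = 0.0359) fell, while PER59 rose (log2 fold change 0.72 ± 0.18, adjusted p = 0.0466). Extensins, wall glycoproteins, had 0 higher and 1 lower of 40 (median -0.30), the call being AT1G23720 with 309.9, 178 and 187 CPM against 238 to 699 CPM (log2 fold change -0.89 ± 0.21, adjusted p = 0.0336). Without CR replicate 1, 14 extensins were lower, as were 1083 of all 22467 genes tested in that fit. XTH genes, for enzymes that cut and rejoin wall xyloglucan, had 0 of 28 called (4 at an unadjusted p of 0.05 or less, DESeq2 0 higher and 1 lower, median -0.13). XTH9 was first by p at 0.58 (adjusted p = 0.0936). Expansins, which loosen walls, had 0 of 25 called (5 at an unadjusted p of 0.05 or less, DESeq2 0 higher and 1 lower, median 0.11). EXPB1 was first by p at -0.36 (adjusted p = 0.094). Aquaporins had 1 higher and 1 lower of 30 (median -0.05), with PIP2-8 higher (log2 fold change 0.54 ± 0.12, adjusted p = 0.0276) and the vacuolar TIP1-1 lower (log2 fold change -0.40 ± 0.10, adjusted p = 0.047).

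The counts of this paragraph also stand beside 2.11% higher and 0.505% lower over all genes tested. Glutathione S-transferases, detoxification enzymes, had 1 higher and 1 lower of 48 (2.08% each, median 0.05). GSTU23 was higher (log2 fold change 0.66 ± 0.16, adjusted p = 0.0438) and GSTF8 lower (log2 fold change -0.42 ± 0.09, adjusted p = 0.0246). Among SAUR genes the counts were 1 higher and 0 lower of 27 (median 0.07), the call being AT4G34810 (log2 fold change 0.75 ± 0.17, adjusted p = 0.03). Among WRKY genes they were 0 higher and 1 lower of 64 (median -0.12), the call being WRKY6 (log2 fold change -0.47 ± 0.12, adjusted p = 0.0475). The ethylene list had 0 of 26 called (3 at an unadjusted p of 0.05 or less, DESeq2 2 higher and 0 lower, median -0.00), the jasmonate list 0 of 23 called (2 at an unadjusted p of 0.05 or less, DESeq2 0 higher and 1 lower, median -0.10), and the list for darkness and sugar starvation 0 of 21 called (5 at an unadjusted p of 0.05 or less, DESeq2 0 higher and 1 lower, median -0.04). The dark-inducible gene DIN11, a higher DEG given above, is not a member of the list for darkness. In the jasmonate list JAR1 was first by p and in the darkness list EXL2, with log2 differences of -0.29 and -0.43 and adjusted p-values of 0.106 and 0.0718. Genes of the mitochondrial dysfunction response had 0 of 20 called (3 at an unadjusted p of 0.05 or less, DESeq2 0 higher and 1 lower, median -0.08), and their median was -0.62 against Q2R alone. NDB2, an alternative NADH dehydrogenase gene, was first by p at -0.31 (adjusted p = 0.0778). Root identity genes had 0 of 12 called (6 at an unadjusted p of 0.05 or less, DESeq2 0 higher and 3 lower, median -0.31), and the phosphate transporter gene PHT1-1 was first by p at -0.43 (adjusted p = 0.0551). The list for defence and indole compounds had 0 of 23 called (3 at an unadjusted p of 0.05 or less, DESeq2 0 higher and 0 lower, median -0.01), and PCR1, first by p, was at 0.0168, 1.47 and 0 CPM in CR against 0 to 0.213 CPM. Seed storage genes held 0.260 to 89.0 CPM in CR (median 0.330) and 0.133 to 0.735 in Q1R, 0.564 to 57.7 in Q2R and 20.7 to 30.7 in Q3R. Of the 6 tested among 13, 0 passed in edgeR or DESeq2 and 2 had an unadjusted p of 0.05 or less in edgeR. CRC, a cruciferin gene and first by p, was at 0, 0 and 4.76 CPM in CR.

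**Figure D5:**
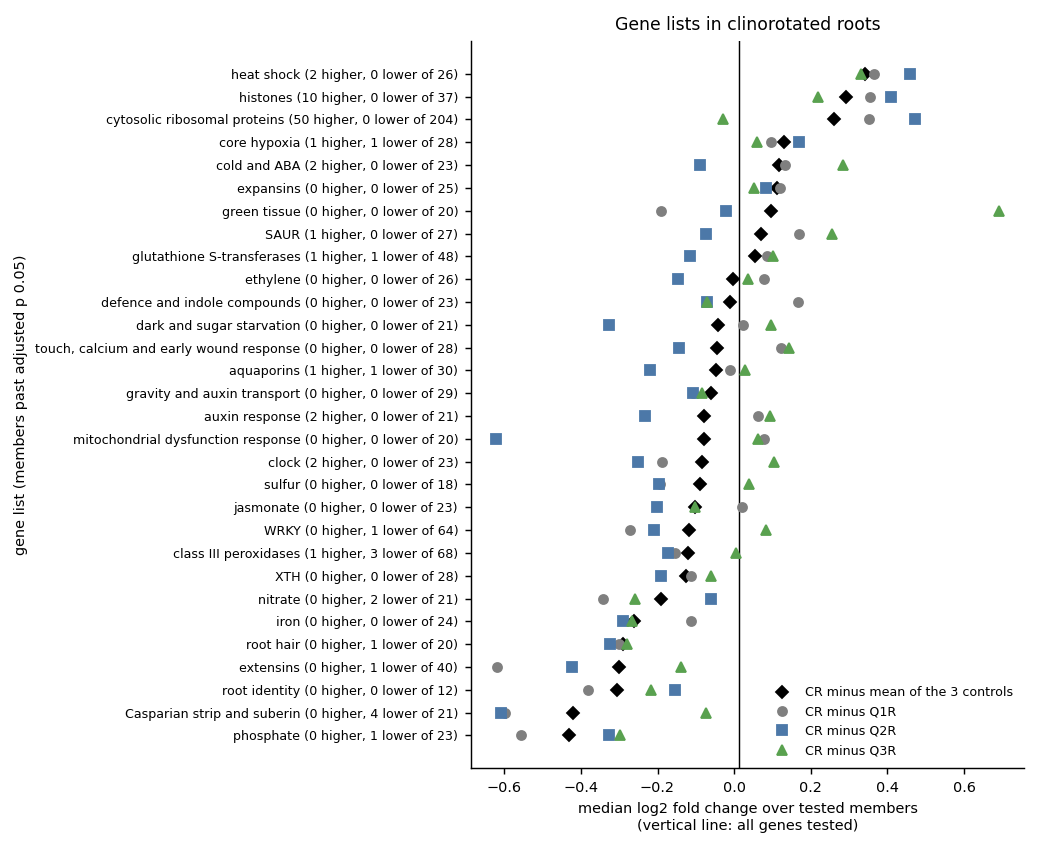
Median log2 fold change over the tested members of 30 gene lists, for CR minus the mean of the 3 controls (diamonds) and minus each control alone (other markers), with the members past an adjusted p of 0.05 in brackets and a vertical line at the median of all genes (0.01). The 4 contrasts of a list share the CR libraries. The lists for seed storage and the organelle genomes, and those picked after their values were seen, are not drawn. Cytosolic ribosomal proteins lie at 0.26 against the pooled controls and at -0.03 against Q3R, and suberin genes at -0.42 and -0.07.

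The root change was also set against that in leaves of the same KFTs. The difference between the root and the leaf change, each against its own pooled controls, passed for 9 genes in the higher and 1 in the lower direction of 23418 tested (0.0384% and 0.00427%), and DESeq2 called 181 and 48. A fit in limma in place of edgeR joined root and leaf libraries of the same KFT and replicate number as a block. In it 3 and 1 passed, namely GRP5, AT4G29020, AT4G21620 and, lower, AT5G19240. The test and the block changed together, and the block correlation was 0.027. In leaves alone 4 genes were higher (0.0171%) and 12 lower (0.0512%). GRP5 was at 14.8 to 24.8 CPM in clinorotated leaves and 13.0 to 66.7 CPM in control leaves, and its root change exceeded its leaf change by 3.82 ± 0.43 on the log2 scale (adjusted p = 0.000391). AT4G29020, AT4G21620 and AT3G23450 exceeded theirs by 2.42, 2.48 and 3.80 (adjusted p = 0.0137, 0.00218 and 0.0468). Leaving out CR replicate 1 gave 73 and 7 such genes, without CR replicate 2 there were 5 and 0, and without CR replicate 3 there were 3 and 0.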

How the data were processed

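Poly(A) RNA of root and leaf samples was sequenced, and the authors deposited whole-number counts of reads per gene. Per the study's methods, the authors trimmed reads with cutadapt, mapped them with STAR to the TAIR10 genome, removed PCR duplicates and counted uniquely mapped reads with HTSeq. Whether strand was used in counting is not given in the sources used here. The deposited tables also hold the authors' own fold changes and p-values, which were not used.

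Genes in the root table (25625) were filtered with filterByExpr, normalized by TMM and fitted with edgeR 4.0.16 in R 4.3.3 (quasi-likelihood test) as 4 group means, and CR was set against the mean of Q1R, Q2R and Q3R. The same fit gave each single control and the controls among themselves. Genes at an adjusted p of 0.05 or less and a log2 fold change of 1 or more in size were called DEGs. The study's pipeline used DESeq2, run here (1.42.0) as an alternative. Other alternatives were other size factors and filters, each library, control group or organelle gene set left out, the controls as 1 group, counts summed per KFT, and replicate numbers as a block (limma 3.58.1, used for the root minus leaf difference). Trends on transcript length and GC content were taken out with mgcv 1.9.3, from RefSeq TAIR10.1 models matched by locus for 25386 genes. No 2 root libraries were identical. The edgeR fit of the pooled contrast was run on simulated counts with set changes in CR. These counts held no difference among the control groups and no vessel effect. The other fits were not run on them.

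Genes named were up to 12 DEGs per direction by fold change, up to 6 members per list past the adjusted p, else the member with the smallest p, a set of genes of gravity, touch, low oxygen and heat, and any called against all 3 controls singly. Others are said to be chosen after their values were seen, and 1 gene under the rule is not reported here. The members and lists were chosen with earlier results of these data known.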

Additional observations from a re-analysis of the deposited data

Results flagged for a closer look

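The log2 fold change in roots differed from that in leaves by the test of the difference for 10 genes, each against the mean of its 3 control groups. With the replicate number as a block, and limma in place of edgeR, 4 genes passed. In 4 of the 10 genes the root change passed the test and the leaf change did not. The root change exceeded the leaf change by 3.82 (adjusted p = 0.000391) for GRP5, 3.80 (adjusted p = 0.0468) for AT3G23450, 2.48 (adjusted p = 0.00218) for AT4G21620 and 2.42 (adjusted p = 0.0137) for AT4G29020. In control leaves these genes were not low, since AT3G23450 had 25.6 to 83.7 CPM there and AT4G29020 had 81.1 to 147 CPM.

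For 5 genes the leaf change passed and the root change did not. LTP3, a lipid transfer protein gene, had 0 to 0.0832 CPM in clinorotated leaves and 0.440 to 2.36 CPM in control leaves, and its difference was 5.99 (adjusted p = 0.00218). AT5G05600, a 2-oxoglutarate-dependent dioxygenase gene, had 3.91 to 5.53 CPM in clinorotated leaves and 8.66 to 24.6 CPM in control leaves, with a difference of 1.65 (adjusted p = 0.0137). SOT8, a sulfotransferase gene, the putative inactive flavonol synthase gene AT5G63580 and the kinase gene MAPKKK19 had 0 counts in all 3 clinorotated leaf libraries. Their fitted differences of 8.16 (adjusted p = 0.0384), 8.25 (adjusted p = 0.0137) and 9.51 (adjusted p = 0.0384) depend on the prior count. Against a floor of 3 counts over the group, they were at least 25.2-fold, 25.2-fold and 43.4-fold below the mean of all control leaf libraries. The control groups were not alike in this. For SOT8 that mean was 0.531 CPM, with 1.06, 0.165 and 0.366 CPM in Q1, Q2 and Q3 leaves. Control leaves ranged from 0 to 1.51 CPM for SOT8 and from 0.0837 to 2.27 CPM for MAPKKK19. AT5G19240, a GPI-anchored protein gene, was the single gene with a lower root change, at -1.22 (adjusted p = 0.0424). It had 86.0 to 111 CPM in clinorotated leaves and 36.7 to 94.3 CPM in control leaves, and neither tissue passed alone (adjusted p = 0.0914 in roots and 0.0553 in leaves).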

How the results depend on the processing

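The 88 DEGs depended on the clinorotated libraries and on the control. Leaving out 1 library at a time gave 3 to 281 DEGs for the pooled contrast, 42 to 513 against Q1R, 49 to 388 against Q2R and 0 to 179 against Q3R, each highest without CR replicate 1. The first was lowest without CR replicates 2 or 3, and against Q3R every other such fit gave 0, apart from 2 without Q3R replicate 1. It gave 24 to 56 for Q2R minus Q1R, 85 to 262 for Q3R minus Q1R, 140 to 310 for Q3R minus Q2R, 227 to 473 for any difference among the controls and 3 to 80 for the root minus leaf difference. For the pooled contrast, the 9 controls as 1 group gave 5 DEGs in edgeR and 68 in DESeq2, counts summed per KFT 0, the pool without Q1R 4, without Q2R 24 and without Q3R 213. An unadjusted p of 0.05 or less with the fold threshold gave 345 and an adjusted p without it 574. Length and GC offsets, chosen after seeing the data, gave 52 for the pooled contrast and 23 for Q2R minus Q1R. Without the low-count filter there were 36 against Q3R and 78 for Q2R minus Q1R. DESeq2 gave 347 against Q1R, 46 against Q3R, 154 for Q2R minus Q1R, 386 for Q3R minus Q1R and 229 for the root minus leaf difference. The replicate block gave 75 DEGs for the pooled contrast and, in limma in place of edgeR, 4 for the root minus leaf difference. By their deviations the numbers do not pair these libraries. Of the same-numbered root pairs 0 of 18 correlated over 0.1, and of the root and leaf pairs of a KFT 0 of 12. Root and leaf libraries may still share plants. Thinning every library to the smallest total, also chosen after seeing the data, gave 95, and other size factors gave 88. No named gene that was called changed sign in the alternatives run. Values that were not called did, such as ADH1 (-0.08) and PIN7 (-0.04) without CR replicate 3 and the medians of the cold and ABA list (-0.10 with counts summed per KFT) and the lipid transfer list (-0.10 with length and GC offsets). Of 83 named genes that were called, 80 lost the call without CR replicate 2 and 80 without CR replicate 3. Without CR replicate 1, a fit with the same number of libraries, all 83 kept the call. The cause of this difference was not tested.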
